A study of Caenorhabditis elegans with 3 samples.

Results

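The fatty acid elongase genes elo-1 to elo-9 of Caenorhabditis elegans were examined for PQM-1 sites in a chromatin immunoprecipitation and sequencing (ChIP-seq) experiment. The 9 genes were taken by name from the Ensembl annotation of the genome build WBcel235, which is the same sequence as ce11, out of 19973 nuclear protein-coding genes. Sites were the peak summits within 5 kb of each gene body in the deposited ce11 peak lists. PQM-1 was profiled in whole L4 larvae of both sexes of strain OP201 (unc-119(tm4063) III; wgIs201), which stably expresses a transgene of PQM-1 carrying a C-terminal GFP-FLAG tag. The 3 libraries formed 1 group and no conditions were compared. Biological replicate 1 was sequenced as 2 technical libraries, joined in 1 alignment, and biological replicate 2 as 1 library. All values therefore describe the tagged protein in this 1 transgenic strain, and whole animals do not show in which tissue a site was occupied.

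Elongases add carbon units to a fatty acid in a repeated cycle, and ELO proteins carry out its first step, the condensation of a fatty acyl-CoA with malonyl-CoA. A ketoacyl-CoA reductase, a hydroxyacyl-CoA dehydratase and an enoyl-CoA reductase then complete each round. ELO-1 lengthens polyunsaturated fatty acids on the way to arachidonic and eicosapentaenoic acid, ELO-2 lengthens palmitic acid to stearic acid, and ELO-5 and ELO-6 make the monomethyl branched-chain fatty acids. PQM-1 is a zinc finger transcription factor that has been linked to the DAF-16-associated element, TGATAAG, a word that contains the core bound by GATA factors.

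The optimal list, which the authors thresholded on the irreproducible discovery rate (IDR), held 4739 peaks with signals from 31.5 to 350 and a median of 55.4. Signal is the authors' own strength value for a peak, set against a control alignment, and is used here to describe and rank peaks within a list. Both replicates pooled gave 18821 peaks, replicate 1 gave 24037 and replicate 2 gave 19038, each list with background peaks included. Read depth is unknown from these lists. With 1 group and genes chosen by name, the shares and ranks below are descriptions without a test. Earlier results from this experiment had been seen before the elongase genes and the other lipid genes were picked. Their shares are therefore not those of sets picked blind to the data.

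PQM-1 summits stood at most, but not all, of the elongase genes. Of the 9 genes, 7 had at least 1 optimal summit within 5 kb, which was so for 41.7% of all protein-coding genes. A promoter summit, meaning one at most 1000 bp upstream or 200 bp downstream of the outermost annotated gene start, was found at 5 of the 9 genes, namely elo-1, elo-2, elo-5, elo-6 and elo-9, against 12.8% of all genes. At 6 of the 9 genes there were 2 or more optimal summits within 5 kb, against 16.9% of all genes. The exception among the 7 was elo-6, with a single summit. For elo-1 and elo-7 the same 2 summits were counted, and shared summits were counted in the same way over all genes. The median number of optimal summits within 5 kb was 2 for the elongase genes and 0 for all genes, while the median gene lengths were 1971 bp and 2027 bp. The genes elo-4 and elo-8 had none at this distance, and elo-7 had only summits that lay nearer to elo-1.

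**Figure D1:**
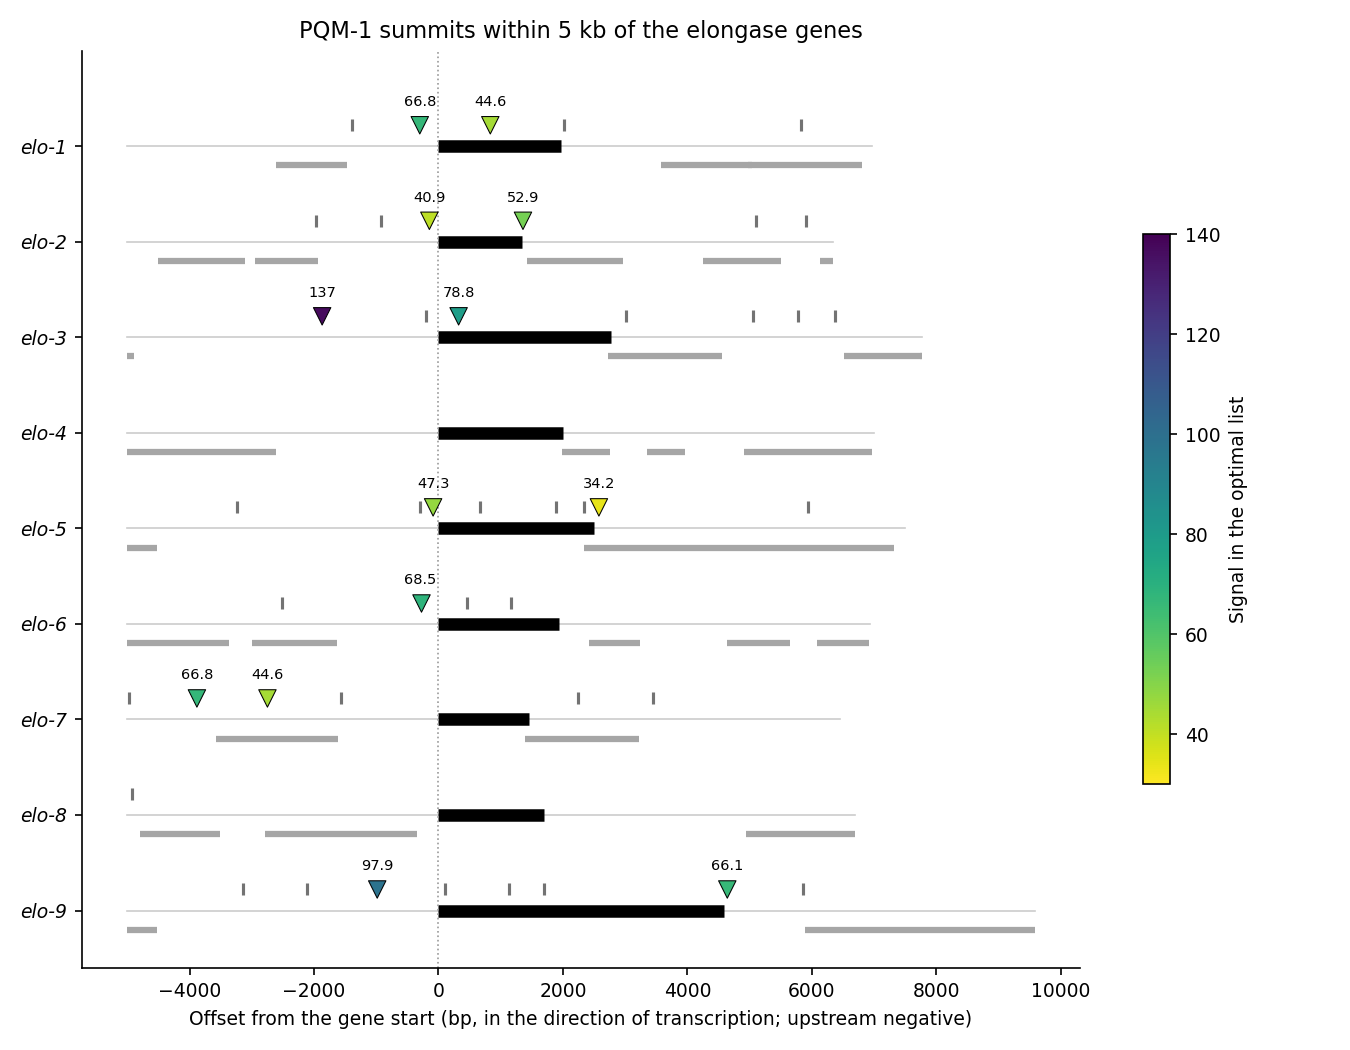
Position of PQM-1 summits around the 9 elongase genes. The x axis gives the offset from the gene start in bp, black bars are the elongase genes, grey bars are neighbouring protein-coding genes, coloured triangles are optimal summits labelled with their signal, and grey ticks are pooled summits below the optimal threshold. The strongest summit, 137, lies 1869 bp upstream of elo-3, and elo-4 has no mark of either kind.

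The 7 windows below hold the 5 summits in elongase promoters and both summits of elo-3, which include the strongest of all 11. They are shown because they place the GATA words relative to the summits. Each is the ce11 reference sequence of 75 bp to either side of a summit, read 5′ to 3′ on the strand of the gene, with the offset of the summit from the gene start. Capitals mark GATA core words on either strand, that is AGATAA and its variants with T in first place, G in last place, or both. Where such a word is part of TGATAAG the final letter is also in capitals, and on the opposite strand that longer word reads CTTATCA.
elo-1 at −300 bp, chrIV:9525991.0-9526141.0, plus strand: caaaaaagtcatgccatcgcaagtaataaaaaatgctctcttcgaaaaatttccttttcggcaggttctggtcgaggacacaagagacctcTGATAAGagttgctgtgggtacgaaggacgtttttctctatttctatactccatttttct
elo-2 at −146 bp, chrIV:17467479.0-17467629.0, minus strand: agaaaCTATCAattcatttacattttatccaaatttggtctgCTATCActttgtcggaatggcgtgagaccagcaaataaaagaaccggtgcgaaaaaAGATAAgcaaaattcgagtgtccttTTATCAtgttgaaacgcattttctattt
elo-5 at −86 bp, chrIV:5377128.0-5377278.0, minus strand: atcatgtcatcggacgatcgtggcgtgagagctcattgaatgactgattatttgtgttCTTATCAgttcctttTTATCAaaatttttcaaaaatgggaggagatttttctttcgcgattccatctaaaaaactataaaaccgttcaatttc
elo-6 at −287 bp, chrIV:5388771.0-5388921.0, minus strand: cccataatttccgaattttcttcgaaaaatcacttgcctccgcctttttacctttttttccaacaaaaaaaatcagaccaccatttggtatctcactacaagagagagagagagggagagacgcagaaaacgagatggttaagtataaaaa
elo-9 at −984 bp, chrII:14965017.0-14965167.0, minus strand: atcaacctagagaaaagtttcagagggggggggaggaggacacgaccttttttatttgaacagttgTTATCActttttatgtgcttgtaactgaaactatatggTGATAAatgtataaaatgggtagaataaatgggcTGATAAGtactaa
elo-3 at −1869 bp, chrIV:7235774.0-7235924.0, plus strand: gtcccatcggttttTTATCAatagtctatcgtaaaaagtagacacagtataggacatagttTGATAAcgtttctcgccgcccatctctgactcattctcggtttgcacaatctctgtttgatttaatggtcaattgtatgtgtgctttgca
elo-3 at +324 bp, chrIV:7237967.0-7238117.0, plus strand: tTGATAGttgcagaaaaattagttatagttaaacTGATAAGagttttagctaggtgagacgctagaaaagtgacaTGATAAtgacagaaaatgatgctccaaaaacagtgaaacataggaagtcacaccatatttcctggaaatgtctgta
The word TGATAAG is present in the windows of elo-1, elo-5, elo-9 and the intronic summit of elo-3. The windows of elo-2 and of the upstream elo-3 summit hold shorter GATA words only, and that of elo-6 holds neither.

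In promoters, the strongest site was at elo-9, WBGene00001247, on the minus strand of chromosome II at 14959526 to 14964108. Its peak, at 14965007 to 14965130, had a signal of 97.9 and a summit at −984 bp (offsets upstream of a start are negative), just inside the promoter limit. It ranked 646 of the 4739 optimal peaks and 335 among the 2553 genes with a promoter summit. The peak stood within the top 2.50% of the replicate 1 list, at 31.5, and within the top 3.08% of the replicate 2 list, at 73.1. The next gene upstream, pole-4, lies 4524 bp away on the same strand, and no other protein-coding promoter held this summit. A second elo-9 summit, with a signal of 66.1, lay 59 bp past the end of the gene at 14959295 to 14959638. Its nearest gene start was that of Y53F4B.1, at −1254 bp. The replicates placed it apart, within the top 15.4% in replicate 1 and 7.36% in replicate 2.

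The elongases of branched-chain synthesis, elo-5 and elo-6, lie on the same strand of chromosome IV with other genes between them, and each had its own promoter summit. For elo-6 (WBGene00001244, minus strand, 5386629 to 5388559), the peak at 5388674 to 5389017 had a signal of 68.5, with its summit at −287 bp. It lay within the top 6.17% in replicate 1 at a signal of 22.4, and within the top 8.95% in replicate 2 at a signal of 48.1. This summit lies in an exon of the non-coding RNA gene F41H10.36, and 6 protein-coding genes lie within 5 kb of it, but no other protein-coding promoter holds it. For elo-5 (WBGene00001243, minus strand, 5374616 to 5377117), the promoter peak at 5377031 to 5377374 was weaker, at 47.3, and its summit lay at −86 bp. Its signal was 12.8 in replicate 1, within the top 14.8%, and 43.5 in replicate 2, within the top 10.8%. Relative to the optimal summit, the summit of the overlapping peak lay at −173 bp in replicate 1 and at −1 bp in replicate 2, upstream of it in both. The replicate 1 summit lay 30 bp from a separate pooled summit at −289 bp from the gene start, with a signal of 11.1.

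A second site near elo-5 was the weakest of the 11 optimal summits. It had a signal of 34.2, close to the lower end of the optimal list at 31.5, and lay 77 bp past the end of elo-5, at 5374367 to 5374710. This summit falls in the 3′ UTR of F41H10.3, a gene that runs toward elo-5 on the opposite strand. In replicate 1 the overlapping peak had a signal of 8.10 and its summit lay 239 bp away, the largest shift among the 11. In replicate 2 it had a signal of 25.1 at the same base. The replicate 1 summit lay 1 bp from a separate pooled summit at +2340 bp inside elo-5, with a signal of 7.99.

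At elo-1 (WBGene00001239, plus strand of chromosome IV, 9526366 to 9528336), the polyunsaturated fatty acid elongase gene, a promoter site and an intronic site were found. The promoter peak at 9526007 to 9526129 had a signal of 66.8 with its summit at −300 bp. It stood higher in the list of replicate 1, within the top 3.77% at a signal of 27.4, than in that of replicate 2, within the top 11.7% at a signal of 41.4. The gene upstream, ndua-5, is on the opposite strand 1466 bp away, and its promoter did not hold the summit. The intronic peak at 9527027 to 9527370 had a signal of 44.6 at +833 bp, with signals of 11.3 in replicate 1 and 35.5 in replicate 2.

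These same summits are the only optimal ones near elo-7 (WBGene00001245, plus strand, 9529947 to 9531400), which starts 1610 bp past the end of elo-1. From the start of elo-7 they lie at −3881 and −2748 bp, and the nearest start to both is that of elo-1. A weaker pooled summit, with a signal of 27.8 at −1562 bp, had elo-7 as its nearest protein-coding start and lay in the annotated pseudogene WBGene00010176 between these genes. It was listed at 3.54 in replicate 1, within the top 55.4%, and at 25.4 in replicate 2, within the top 22.3%. No pooled summit lay in the promoter of elo-7.

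The palmitic acid elongase gene elo-2 (WBGene00001240, minus strand of chromosome IV, 17466062 to 17467408) had the weakest of the 5 promoter sites. Its peak at 17467382 to 17467725 had a signal of 40.9 with the summit at −146 bp. The replicates ranked it within the top 20.6% at a signal of 9.44 in replicate 1, and within the top 16.3% at a signal of 33.1 in replicate 2. A stronger summit, at 52.9, lay 12 bp past the end of elo-2 in a peak at 17465878 to 17466221. That summit lies in the promoter of the downstream gene F11E6.6, 64 bp before its start, so the value nearest to the end of elo-2 is also the promoter value of its neighbour. A pooled summit of 17.8 lay farther upstream, at −925 bp.

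The strongest summit near any elongase gene lay outside the promoter window, upstream of elo-3 (WBGene00001241, plus strand of chromosome IV, 7237718 to 7240488). Its peak at 7235788 to 7235926 had a signal of 137 and a rank of 213 among the optimal peaks. The replicates placed it almost alike, within the top 1.11% at a signal of 40.3 in replicate 1 and within the top 1.07% at a signal of 99.6 in replicate 2. The summit lay at −1869 bp, in no protein-coding promoter, and the nearest start was that of elo-3. The next gene upstream, D2024.4, ends 4895 bp from elo-3.

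A second elo-3 summit lay in an intron at +324 bp, in a peak at 7237870 to 7238213 with a signal of 78.8. It stood within the top 3.72% in replicate 1 and 8.62% in replicate 2, at 27.5 in the list of replicate 1 and 49.2 in that of replicate 2. Although elo-3 therefore had the largest signal of the family, it was not counted among the genes with an optimal promoter summit. Its promoter held only a pooled summit of 15.6 at −206 bp, below the optimal threshold.

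The genes without a nearby optimal summit are both on chromosome III. Around elo-4 (WBGene00001242, minus strand, 9332269 to 9334274) neither the optimal, the pooled nor the replicate 2 list placed a summit within 5 kb. Replicate 1 listed 2 peaks there, with signals of 4.44 and 2.26, within the top 43.1% and 90.1% of a list that includes background. The nearest optimal summit lay 5593 bp from the gene and had a signal of 143, and its nearest start was that of C40H1.7.

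Around elo-8 (WBGene00001246, minus strand, 11230377 to 11232069) the pooled list held 1 summit, at −4929 bp with a signal of 17.4, in the promoters of both Y47D3A.14 and aakb-2. Replicate 1 gave 4.87 and 3.76 in its 2 peaks near elo-8, and replicate 2 gave 14.5 in its 1 peak. The nearest optimal summit was 8922 bp from elo-8, with a signal of 39.1. In the pooled list as a whole, 8 of the 9 elongase genes had a summit within 5 kb, against 79.5% of all genes, and 6 of 9 had one in the promoter, against 35.2% of all genes. The sixth promoter was that of elo-3.

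**Figure D2:**
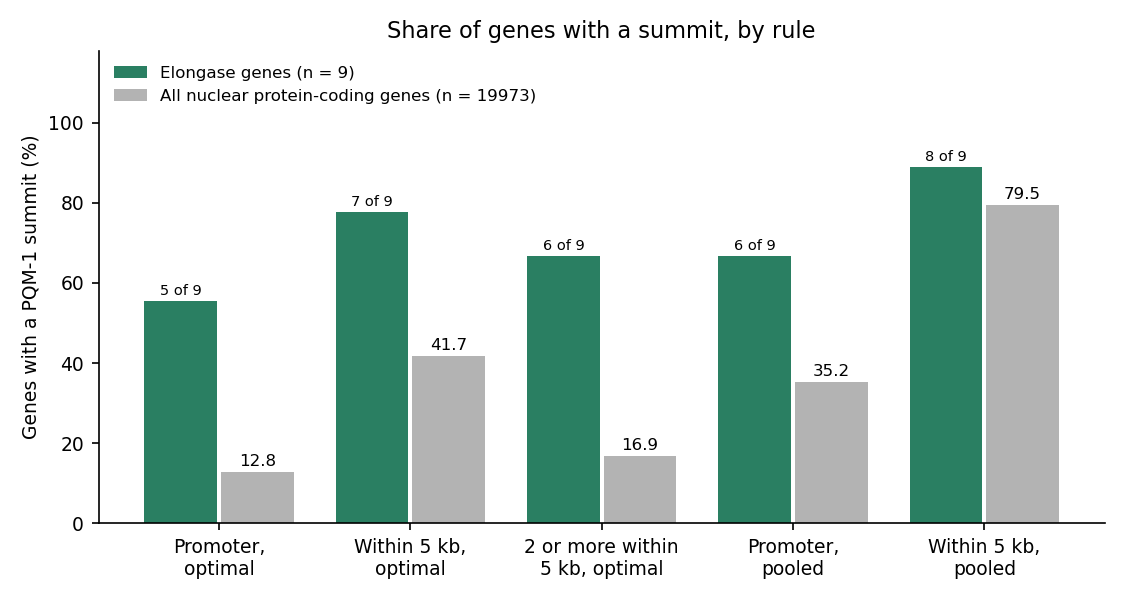
Percent of genes with a PQM-1 summit under 5 rules. Green bars are the 9 elongase genes, labelled with their counts, and grey bars are all 19973 nuclear protein-coding genes, labelled in percent. The bars for the elongase genes are higher under each rule, and the gap is narrowest for pooled summits within 5 kb, 8 of 9 against 79.5%.

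In strength the elongase sites spread over most of the optimal list, with ranks from 213 to 4361 of 4739. The 11 optimal summits had signals from 34.2 to 137 with a median of 66.1, and 6 of them exceeded the median of 55.4 over all optimal peaks. The 5 promoter values, 40.9 at elo-2, 47.3 at elo-5, 66.8 at elo-1, 68.5 at elo-6 and 97.9 at elo-9, had a median of 66.8. The strongest promoter signals of all 2553 genes with a promoter summit had a median of 55.1. Among those genes elo-9 stood within the top 13.1%, elo-6 within 33.2%, elo-1 within 35.1%, elo-5 within 63.1% and elo-2 within 75.4%. The median summit offset in promoters was −287 bp for the 5 elongase genes and −196 bp for all 2553 genes.

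**Figure D3:**
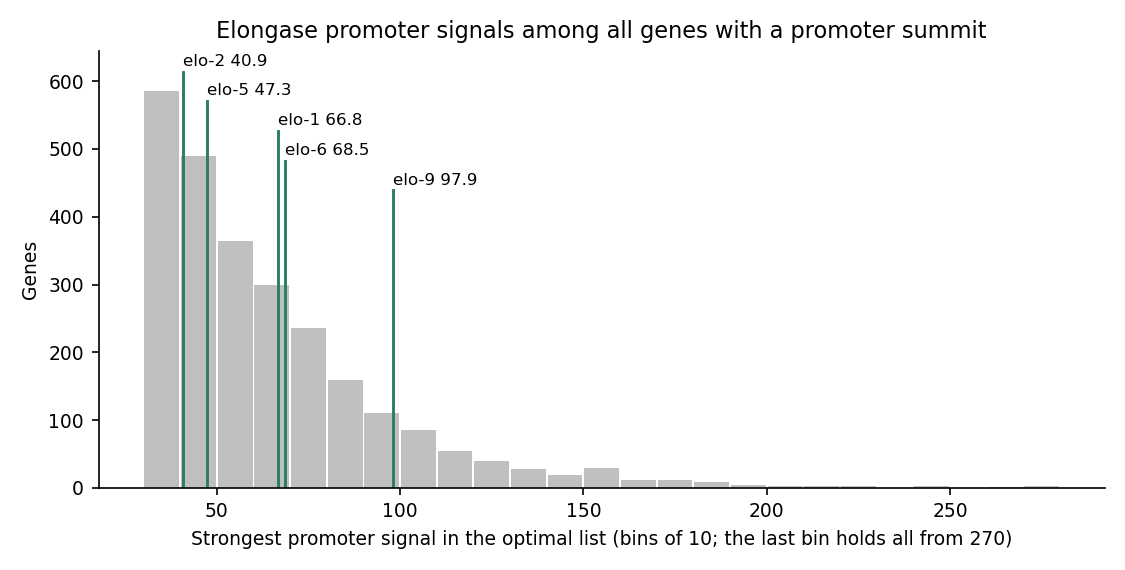
Strongest promoter signal of each of the 2553 genes with an optimal promoter summit. Grey bars count genes in bins of signal, and green lines mark the 5 elongase genes with their values. The elongase values run from 40.9 at elo-2 to 97.9 at elo-9, and no elongase promoter lies above 100.

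By position, 5 of the 11 optimal summits lay in elongase promoters and 2 in introns of elo-1 and elo-3. Another 2 were intergenic, upstream of elo-3 and past the end of elo-9. Of the others, 1 lay in the F11E6.6 promoter and 1 in the 3′ UTR of F41H10.3. An elongase gene was the nearest start for 9 of the 11.

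Each of the 11 optimal summits was overlapped by a peak in both replicates. That is partly given, since the optimal list was drawn from these same replicates. At both elo-5 sites the replicate 1 summit lay nearer to a neighbouring pooled summit than to the optimal one. The summit in replicate 2 lay within 20 bp of the optimal one in every case, with a median of 9 bp, while that in replicate 1 lay a median of 27 bp and at most 239 bp away. Signals in different lists are not on 1 scale, so ranks were compared in percent of the list. The ranks were closest at the upstream site of elo-3. They were farthest apart at elo-9 past its end, at elo-1 in its promoter and at the site between elo-2 and F11E6.6, which lay within the top 6.44% in replicate 1 and 13.2% in replicate 2.

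**Figure D4:**
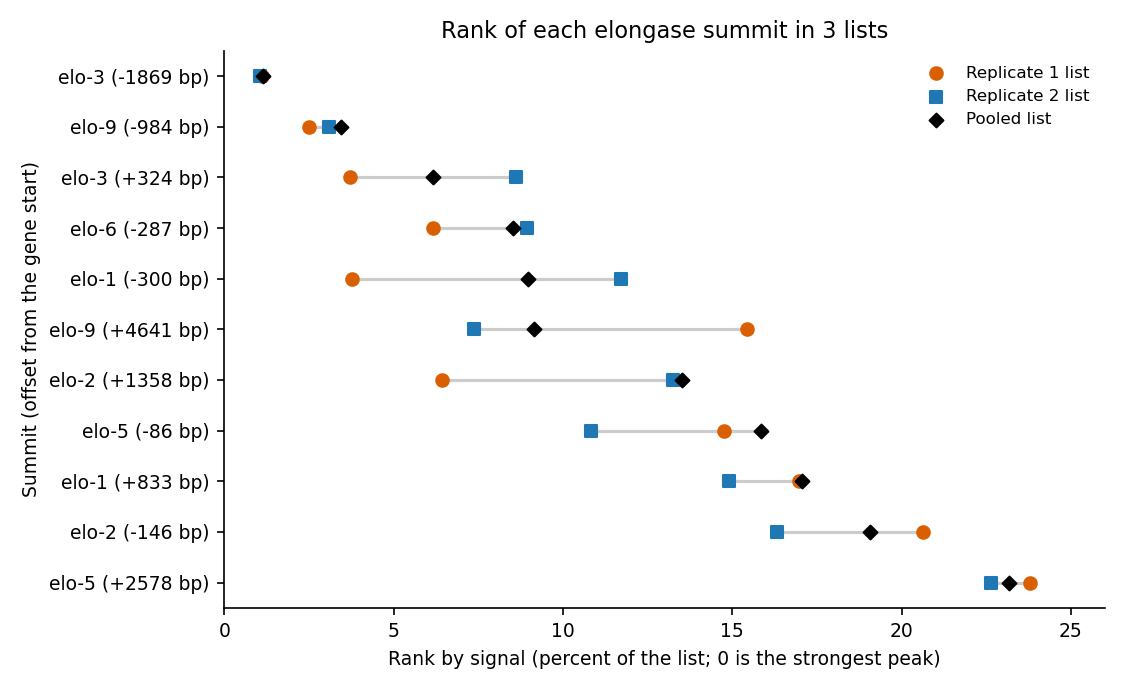
Rank of each of the 11 elongase summits in the lists of replicate 1 (circles), replicate 2 (squares) and both pooled (diamonds). The x axis is the rank by signal in percent of the list, with 0 the strongest peak, and the y axis names the gene and the offset from its start. The upstream elo-3 summit lies near 1.1 in all 3 lists, and the site past the end of elo-5 is the lowest ranked in each.

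Below the optimal threshold, the pooled list held 29 further summits within 5 kb of the elongase genes, with signals from 7.59 to 30.5 and a median of 13.4. Of these, 14 were overlapped in both replicates, a share for which no like value over all weaker pooled peaks is given here. They include the elo-5 summits at −289 and +2340 bp. The replicate peaks overlapping those also overlapped the optimal elo-5 summits at −86 and +2578 bp, so the same peaks were counted for both. The one just under the threshold, at 30.5, lay 5858 bp past the start of elo-9 in the promoter of Y53F4B.1. The next lay between elo-1 and elo-7, at 27.8, and in the promoter of F56H11.2 downstream of elo-7, at 24.1. The one just above it was the 34.2 site at the end of elo-5.

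In windows reaching 100 bp to either side of a summit, TGATAAG occurred on either strand in 5 of the 11 elongase windows, or 45.5%, against 44.1% of all 4739 optimal windows. The elongase windows with the word were the elo-1, elo-5 and elo-9 promoter summits, the elo-3 intronic summit and the site between elo-2 and F11E6.6. It lay 7 bp from the summit at the elo-2 and F11E6.6 site, 14 bp at elo-5, 19 bp at elo-1, 38 bp at elo-3 and 66 bp at elo-9. A GATA core word, which every TGATAAG contains, was present in 10 of the 11 elongase windows, or 90.9%, against 84.2% of all optimal windows. The exception was the elo-6 promoter window, which instead held 5 GAGAGA words between 28.5 and 42.5 bp from the summit, all but the farthest of them overlapping.

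GAGAGA was present in 2 of the 11 elongase windows, or 18.2%, against 26.4% of all windows. The forkhead word GTAAACA and the E-box CACGTG were in none of the 11, against 4.90% and 6.27% of all windows. With only 11 windows, an absence cannot be told apart from shares this small. A match or its absence describes letters in the window, not a bound factor. The median GC content was 33.8% in the elongase windows and 36.8% in all optimal windows.

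Other lipid genes were read from a list of 22 genes. It held 3 elongation partners, 6 genes listed under supply, 6 regulators of lipid genes and 7 desaturases. Of these 22, 8 had an optimal promoter summit (36.4%), against 12.8% of all genes, and 19 had an optimal summit within 5 kb (86.4%), against 41.7%. The 5 kb window includes the gene body, so it is wider for longer genes, and the lengths of the 22 genes were not compared. Neighbouring genes can also be counted on the same summit, as fat-3 and fat-4 were. Within 5 kb the counts were 2 of 3 partners, 4 of 6 supply genes, 6 of 6 regulators and 7 of 7 desaturases. Among the enzymes that share the elongation cycle with the ELO proteins, let-767, a ketoacyl-CoA reductase, had a promoter signal of 73.0 at −262 bp. The dehydratase gene hpo-8 had 48.0 at −121 bp, and the enoyl-CoA reductase gene art-1 had no optimal summit within 5 kb. Among the 6 genes listed under supply, 2 had a promoter summit. These were acs-1, an acyl-CoA synthetase gene of the branched-chain pathway, with 84.9 at −42 bp, and the malonyl-CoA decarboxylase gene mlcd-1, with 42.9 at −617 bp. The label is loose for mlcd-1, since a decarboxylase uses up malonyl-CoA. The acetyl-CoA carboxylase gene pod-2 had none in its promoter but 4 within 5 kb, the strongest at 64.8. The ATP citrate lyase gene acly-1 had a summit of 112 at −1435 bp, outside the promoter window. The fatty acid synthase gene fasn-1 and acly-2, a second ATP citrate lyase gene, had none within 5 kb.

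Of the 6 regulators of lipid genes, 3 had an optimal promoter summit. The sterol regulatory element-binding protein gene sbp-1 had 80.7 at −152 bp, and the nuclear receptor genes nhr-80 and nhr-49 had 81.7 at −558 bp and 66.3 at −454 bp. The Mediator subunit gene mdt-15 had its strongest summit, 119, far upstream at −4546 bp. The nuclear receptor genes nhr-66 and nhr-13 also had summits within 5 kb but none in the promoter. The fatty acid desaturases fat-1 to fat-7, which place double bonds in the same acyl chains, all had an optimal summit within 5 kb, against 41.7% of all genes. Of the 7, 1 had one in its promoter (14.3%, against 12.8% of all genes), namely fat-3, with 43.9 at −107 bp. Within 5 kb of several desaturase genes, but outside their promoters, lay stronger summits than near any elongase gene, where the highest was 137. Unlike for the elongase genes, the nearest start to these desaturase summits and the promoters holding them were not examined, so they may belong to neighbours. The stronger summits were 157 at −3024 bp from fat-5, 156 at a summit within 5 kb of both fat-3 and fat-4, and 141 at +3415 bp from fat-2.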

How the data were processed

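PQM-1 ChIP-seq peak lists of 1 group of L4 larvae (2 biological replicates, 3 libraries) were analysed. Each deposited list gives a signal per peak, which the authors computed relative to a control alignment per the deposited readmes, and the authors' −log10 q, which has a ceiling in each list. The optimal list was made by the authors with IDR from both replicates, per the deposited readmes. The other lists, made as IDR input, also hold background peaks. For the aligner, caller, versions and IDR threshold, nothing is given in the sources used here. The control alignment was not analysed here.

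Summits were assigned to genes of Ensembl release 115 on WBcel235 when within 5000 bp of the gene body, and to promoters when at most 1000 bp upstream or 200 bp downstream of the outermost start. Motifs were searched within 100 bp of a summit on both strands. Overlap with a replicate needed 1 bp. Python 3.11.15, pandas 2.3.3 and Biopython 1.88 were used, and the counting was tested on simulated peaks. Signal was used within a list only, and ranks between lists. Named genes are the 9 elongases, genes whose start or promoter is nearest to their summits, and the 22 listed lipid genes. Neighbours upstream and next sites are named for position only. Members and lists were chosen with earlier results of these data known, so no test was made. Alternatives varied the peak threshold, distance, promoter, window and replicates. The ce10 lists were not used here.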

Additional observations from a re-analysis of the deposited data

How the results depend on the processing

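Most counts moved with the strength of the peaks taken, and those over all genes moved too. With the stronger 50% of the optimal peaks, 3 elongase genes (elo-1, elo-6 and elo-9) and 5 of the 22 lipid genes had a promoter summit, against 6.34% of all genes. In that list 5 elongase genes had a summit within 5 kb, against 25.4% of all genes, and 3 of the 6 summits held TGATAAG, against 53.1% of all windows. With 2 times as many pooled peaks, 6 elongase and 15 lipid genes had a promoter summit, against 23.9%, and 8 elongase genes had one within 5 kb, against 60.5%. Of the 24 summits, 9 held TGATAAG, against 31.4% of all windows. At 10 kb all 9 elongase genes had a summit, 18 in total, against 58.6% of all genes, so that the absence at elo-4 and elo-8 depends on the distance. At 2 kb 6 had one, without elo-7, against 26.9%. A promoter of 2000 bp upstream gave 6 elongase genes, with elo-3 added, and 13 lipid genes, against 16.8%. With 500 bp upstream, 4 elongase genes remained, without elo-9, against 9.64%. The count was 6 when 1 bp of the peak in the promoter was enough, against 13.7%. To leave out replicate 1 or replicate 2, the 4739 strongest peaks of the other replicate alone were taken. Both cases gave 7 genes within 5 kb, against 41.8% of all genes without replicate 1 and 41.2% without replicate 2. A promoter summit was found at 4 to 5 elongase genes (elo-2 was lost without replicate 2) and 8 to 10 lipid genes. There were 10 to 12 summits, 3 to 5 with TGATAAG. Without replicate 1, 5 of 12 windows held TGATAAG, against 43.3% of all windows. Without replicate 2, 3 of 10 windows held TGATAAG, against 39.7% of all windows. The all-gene promoter share was 12.7% whichever replicate was left out. No paired analysis was possible because the series has 1 group and no result comes from a test.

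Peak lists hold no read counts, so the depth behind each site is unknown. Counts per gene depend on annotated starts and on which neighbour a shared summit is given to, and the values are those of a tagged transgene.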

Other observations

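All 5 elongase promoters with an optimal summit held TGATAAG somewhere in the promoter window, though not always near the summit. The same share over all 2553 genes with an optimal promoter summit was not computed, so this count has no like comparison. The word was present in 6 of the 9 elongase promoters, against 23.7% of 19972 promoters read, whether or not they held a summit. The sixth was that of elo-7, whose promoter held 1 copy and neither an optimal nor a pooled summit. The word was absent from the promoters of elo-3, elo-4 and elo-8. Core words of the GATA type were present in 8 of the 9 elongase promoters, against 93.3% of all promoters. The exception was elo-8, with 0 copies, while elo-2 had 10. The elo-6 promoter held 1 copy of the longer word more than 100 bp from its summit, together with 9 overlapping or separate GAGAGA words. GAGAGA was present in 5 of the 9 elongase promoters, against 50.9% of all promoters. GTAAACA was present in 2 of the 9, those of elo-1 and elo-7, against 15.1%. CACGTG was present in 1 of the 9, that of elo-8, against 18.4%. These counts are descriptions, and the words were chosen with earlier results of these data known.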
